A study of Mus musculus with 7 samples.

Results

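The MHC class II genes and their chaperones were followed in bulk RNA of 7 mouse melanomas. They are 10 genes, taken by their symbols from the 28233 genes of the expression table: the classical chains H2-Aa, H2-Ab1 and H2-Eb1, the invariant chain Cd74, the transactivator Ciita, the H2-DM chains H2-DMa, H2-DMb1 and H2-DMb2, and the H2-DO chains H2-Oa and H2-Ob. All 10 had a mean over the 7 tumours of at least 1 TPM (transcripts scaled for length and to a fixed total per tumour), the filter below which genes were not tested. H2-Oa and H2-Ob passed it only through the Cr1l group, since their vector means were 0.937 and 0.827 TPM. The tumours grew subcutaneously in C57BL/6 mice from B16mhgp100 cells, which derive from the mouse melanoma B16. Cr1l, a gene for a membrane regulator of complement, was over-expressed in 4 of them (Cr1l 1 to Cr1l 4), and 3 carried the vector (Vec 5 to Vec 7). Every mouse had received an antibody against PD-1 at 200 µg per dose from day 10, 2 doses a week and 4 in all, and was sampled 1 day after the final one. All comparisons are therefore between treated tumours, and no untreated tumour was analysed here. Clonality of the cells is not stated in these sources.

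MHC class II molecules carry peptides from endosomes to the cell surface, where CD4 T cells read them. An alpha and a beta chain pair in the endoplasmic reticulum with the invariant chain, which fills the groove and steers the complex to endosomes. There proteases trim it to a short peptide, H2-DM exchanges that peptide for others, and H2-DO restrains H2-DM. Dendritic cells, B cells and many macrophages make these molecules constantly, and interferon gamma can induce them in other cells, melanoma cells included, through Ciita. Ciita binds no DNA itself: it docks on RFX, CREB and NF-Y proteins, which sit on the X and Y boxes of class II promoters.

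The upstream stretches of the 6 genes found here to hold letters of both boxes are shown first. Promoters were read from the RefSeq table of the GRCm38.p6 build, which is not the authors' own (mm39). From it 8 promoters of 7 of the 10 genes were used. H2-Ab1 and Ciita had no entry that was used, and Cd74 was left out by choice. The core of the Y box, ATTGG on either strand, stood within 250 bases upstream in 7 of the 8 promoters, and in 33.8% of all 32851 promoters in the table. GCAAC, a part of the X box, stood on either strand in 5 of the 8 and in 29.9% of all. Both were held by 4 of the 8 and by 10.6% of all. A longer arrangement, AAC followed on the same strand by TGATTGG with starts 23 to 35 bases apart, was in 6 of the 8 and in 1.04% of all. That arrangement overlaps ATTGG, and its letters and spacing were chosen after the sequences of these genes had been seen, so its count is a description. With the spacing narrowed to 26 to 30 bases, also chosen afterwards, the same count was 6 of 8 against 0.46%. A match is neither a binding site nor a cause of any value below. The 6 stretches run 5′ to 3′ on the strand of the gene, from 135 to 31 bases before its start, with AAC and TGATTGG in capitals. They are chr17:34287854-34287958 (minus strand) for H2-Aa, and on the plus strand chr17:34305732-34305836 for H2-Eb1, chr17:34153056-34153160 for H2-DMb1, chr17:34145114-34145218 for H2-DMb2, chr17:34092244-34092348 for H2-Oa and chr17:34238770-34238874 for H2-Ob.
H2-Aa: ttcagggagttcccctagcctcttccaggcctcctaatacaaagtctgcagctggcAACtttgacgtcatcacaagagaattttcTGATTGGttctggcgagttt
H2-Eb1: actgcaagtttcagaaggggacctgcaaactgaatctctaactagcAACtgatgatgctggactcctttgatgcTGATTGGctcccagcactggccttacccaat
H2-DMb1: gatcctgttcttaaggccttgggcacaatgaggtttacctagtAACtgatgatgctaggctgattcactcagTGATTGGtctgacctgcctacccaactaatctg
H2-DMb2: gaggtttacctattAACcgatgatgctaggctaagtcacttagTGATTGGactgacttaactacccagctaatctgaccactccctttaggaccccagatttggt
H2-Oa: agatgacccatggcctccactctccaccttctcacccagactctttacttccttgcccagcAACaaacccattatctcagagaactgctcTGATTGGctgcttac
H2-Ob: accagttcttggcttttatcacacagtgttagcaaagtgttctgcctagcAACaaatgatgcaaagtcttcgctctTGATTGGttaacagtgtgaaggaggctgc
The capitals of H2-Aa, H2-DMb1, H2-DMb2 and H2-Oa begin 29 bases apart, those of H2-Eb1 28 and those of H2-Ob 26. H2-DMb2 holds them farthest upstream, 121 and 92 bases before the start, and H2-Oa nearest, 74 and 45 bases before it. The AAC is the end of GCAAC in H2-Aa, H2-Eb1, H2-Oa and H2-Ob. Where more than 1 AAC fitted the spacing, as in H2-Eb1 and H2-Oa, the AAC ending GCAAC was taken, or else the first. The spacings and the GCAAC ends are therefore partly fixed by that choice. Neither promoter of H2-DMa held the arrangement.

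**Figure D1:**
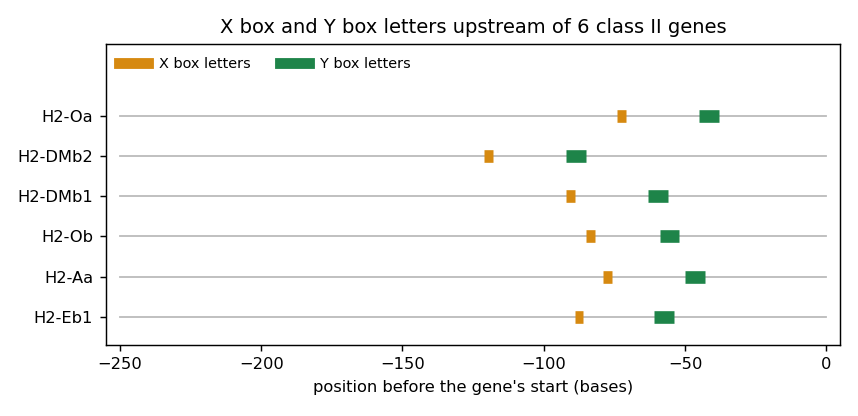
Position, in bases before the start of the gene, of AAC (X box letters, orange) and TGATTGG (Y box letters, green) in the 6 promoters that hold both; grey lines are the 250 bases searched. The 2 blocks begin 26 to 29 bases apart in every promoter drawn.

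Libraries were not strand-specific and were made from poly-T selected RNA; read numbers were not given, so depth is unknown. TPM summed to 993520 to 996031 per tumour, and 13634 to 15352 genes reached 1 TPM. Cr1l itself was 76.37 to 83.57 TPM with Cr1l and 46.29 to 54.94 TPM with vector, which did not overlap (log2 fold change 0.62, SE 0.11, limma adjusted p = 0.119). Leukocyte RNA and globin RNA differed between tumours in ways that touch the results. Cr1l 3 and Cr1l 4 held more leukocyte RNA than every other tumour: the 4 pan-leukocyte markers summed to 956 and 653 TPM there, and to 71.9 to 266 TPM elsewhere. Vec 6 and Vec 7, whose titles carry a further number of unstated meaning, held globin RNA at 4.14% and 0.973% of all TPM, against 0.0106% to 0.0417% in the other tumours, and Vec 6 also held keratin RNA (4 keratinocyte markers, 840 TPM, against 0.41 to 47.3 TPM elsewhere). The part of any of these in the class II values was not tested, and in bulk RNA fewer cells of a type and less RNA per cell cannot be told apart. The labels number the tumours as separate samples.

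Class II RNA varied more within the Cr1l group than between the groups. The 10 genes together made up 0.893% of all TPM in Cr1l 3 and 0.556% in Cr1l 4, but 0.114% in Cr1l 1 and 0.121% in Cr1l 2. The vector tumours lay between these pairs, at 0.468% in Vec 5, 0.241% in Vec 6 and 0.234% in Vec 7. All 10 genes were highest in Cr1l 3 or Cr1l 4, and 9 of them in Cr1l 3. In 9 genes both of these tumours exceeded every vector tumour, and in 6 genes both Cr1l 1 and Cr1l 2 lay below every vector tumour. The spread within groups had a median SD of 1.12 on the log2(TPM + 1) scale over the 10 genes, and of 0.30 over all tested genes.

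**Figure D2:**
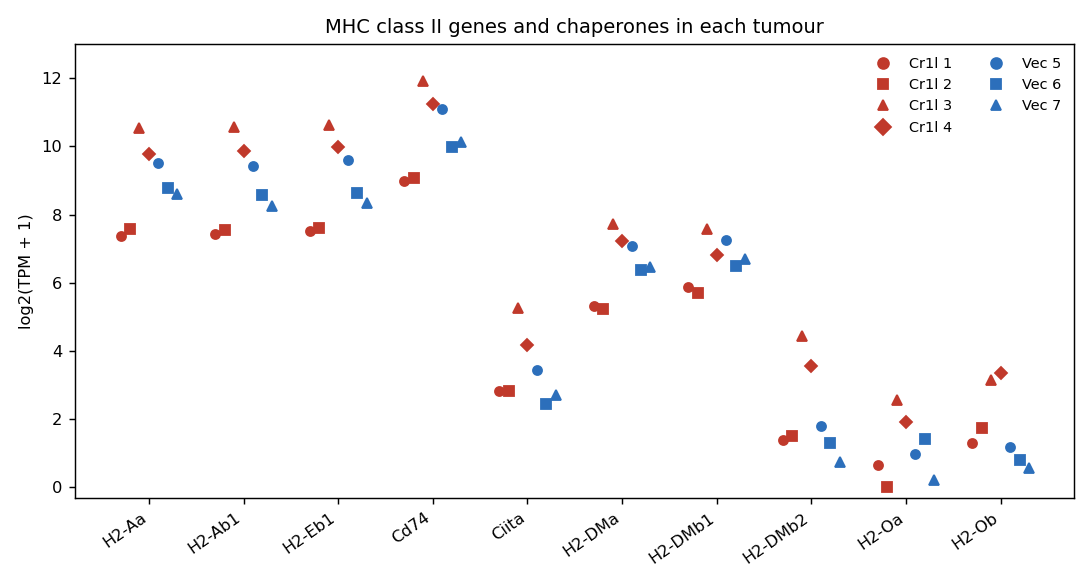
log2(TPM + 1) of the 10 genes in each of the 7 tumours, Cr1l in red and Vec in blue, with 1 point per tumour. Cr1l 3 or Cr1l 4 is the highest point of every gene, and the groups separate in H2-Ob alone.

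None of the 10 genes passed the limma test at an adjusted p of 0.05 over all 14954 tested genes, a threshold that 0.0134% of the genes passed in either direction. At an unadjusted p under 0.05, 1 gene, H2-Ob, was higher in Cr1l, against 9.49% of all genes. H2-Ob was also the 1 gene with every Cr1l tumour above every vector tumour, as were 9.29% of all genes. Its vector mean of 0.827 TPM lay under the filter, so H2-Ob was tested only through the Cr1l tumours, where it was high. In 0 of 10 genes was every Cr1l tumour below every vector tumour, which held for 6.67% of all genes. A share of 1 in 10 lies near both backgrounds. Without Vec 5, 3 genes did not overlap (Ciita, H2-DMb2 and H2-Ob, all higher), and without Cr1l 3 and Cr1l 4, 7 did not (H2-Ob higher, and H2-Aa, H2-Ab1, H2-Eb1, Cd74, H2-DMa and H2-DMb1 lower). Shares over all genes are not given for these settings, and fewer tumours separate more easily, so both counts are descriptions. Leaving out Cr1l 3 and Cr1l 4 removed the tumours with the most class II RNA. The difference in log2(TPM + 1) was positive in 6 genes and negative in 4, with a median of 0.10 over the 10 and 0.05 over all tested genes. That scale understates the change of genes with low values.

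The classical chains belong to the peptide-binding molecules themselves: H2-Aa and H2-Ab1 are the chains of I-A, and H2-Eb1 is a beta chain of I-E. The alpha chain of I-E is not among the genes followed, so H2-Eb1 RNA does not show that I-E was formed. H2-Aa, the I-A alpha chain, was at 164.35, 189.11, 1471.65 and 874.08 TPM in Cr1l 1 to 4 and at 729.70, 436.69 and 383.98 TPM in Vec 5 to 7. The vector values fell inside the gap between the lower and the higher pair of Cr1l tumours. The Cr1l group averaged 675 ± 625 TPM (SD, n = 4) and the vector group 517 ± 186 TPM (SD, n = 3), and the log2 difference of -0.15 (SE 0.78) did not pass limma (adjusted p = 0.936). H2-Ab1, the I-A beta chain, was at 170.70, 184.57, 1525.26 and 935.63 TPM with Cr1l and at 687.03, 377.00 and 301.35 TPM with vector. Its order over the 7 tumours was that of H2-Aa, and its log2 difference was 0.11 (SE 0.80, limma adjusted p = 0.956). H2-Eb1 was at 184.00, 194.87, 1591.38 and 1005.83 TPM against 774.61, 392.68 and 323.59 TPM, again with the vector tumours in the middle (log2 difference 0.09, SE 0.80, limma adjusted p = 0.965). Within the Cr1l group the highest tumour was 8.95-fold the lowest for H2-Aa, 8.94-fold for H2-Ab1 and 8.65-fold for H2-Eb1, and within the vector group 1.9-fold, 2.28-fold and 2.39-fold. The sign of each of these 3 differences turned when single tumours were left out. H2-Eb2, a further beta chain gene of the region, stayed under the filter at 0.08 to 1.16 TPM.

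Cd74, the invariant chain that escorts the classical chains, was the most abundant of the 10 genes. It was at 509.41, 540.41, 3837.92 and 2419.64 TPM with Cr1l and at 2167.99, 1011.00 and 1120.43 TPM with vector. The pattern was that of the classical chains, with the groups overlapping and a log2 difference of -0.09 (SE 0.75, limma adjusted p = 0.96) that also turned sign when single tumours were left out. Cd74 alone gave 42.2% to 48.1% of the summed TPM of the 10 genes in each tumour, and with the classical chains 90.6% to 94.7%.

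Ciita, the transactivator of the family, was at 6.16, 6.04, 37.52 and 16.97 TPM with Cr1l and at 9.81, 4.40 and 5.51 TPM with vector. Unlike the classical chains, it was not below every vector tumour in Cr1l 1 and Cr1l 2, which lay between Vec 5 and Vec 7. The Cr1l group averaged 16.7 ± 14.8 TPM (SD, n = 4) and the vector group 6.57 ± 2.86 TPM (SD, n = 3), and the log2 difference of 0.92 (SE 0.61) did not pass limma (adjusted p = 0.474). Without Cr1l 3 and Cr1l 4 it was -0.03.

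H2-DM exchanges peptides in the endosome and is built of H2-DMa and a beta chain. H2-DMa was at 38.64, 36.58, 209.92 and 147.11 TPM with Cr1l and at 132.91, 82.56 and 87.98 TPM with vector. The vector tumours lay between the pairs of Cr1l tumours, as for the classical chains (log2 difference -0.27, SE 0.63, limma adjusted p = 0.846; positive without Cr1l 1 or Cr1l 2). H2-DMb1 was at 58.17, 51.35, 189.04 and 110.84 TPM against 150.43, 89.68 and 102.83 TPM. Here Vec 5 exceeded Cr1l 4, and the log2 difference was -0.32 (SE 0.45, limma adjusted p = 0.735). H2-DMb2, the second beta chain gene, was at 1.64, 1.86, 20.53 and 10.80 TPM with Cr1l and at 2.46, 1.45 and 0.66 TPM with vector. Vec 5 stood above Cr1l 1 and Cr1l 2, so the groups overlapped, and the log2 difference of 1.45 (SE 0.76) did not pass limma (adjusted p = 0.381). The longest protein-coding transcripts of H2-DMb1 and H2-DMb2 (1404 and 1483 bases, GENCODE vM21) were 94.3% identical over 1211 aligned bases. Of the 1355 stretches of 50 bases in H2-DMb1, 26.6% recur in H2-DMb2, so the authors' counting may have divided reads between them and both values are uncertain.

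H2-DO restrains H2-DM and is best known from B cells, some dendritic cells and thymic epithelium. H2-Oa, its alpha chain, was at 0.59, 0.00, 4.90 and 2.78 TPM with Cr1l and at 0.99, 1.65 and 0.17 TPM with vector. Cr1l 2 was listed at 0, the groups overlapped, and the log2 difference was 0.41 (SE 0.64, limma adjusted p = 0.767), or -0.01 without Cr1l 3. H2-Ob, the beta chain, was at 1.47, 2.35, 7.91 and 9.29 TPM with Cr1l and at 1.25, 0.75 and 0.48 TPM with vector. Every Cr1l tumour was above every vector tumour, by 1.47 against 1.25 TPM at the closest. The Cr1l group averaged 5.25 ± 3.92 TPM (SD, n = 4) and the vector group 0.827 ± 0.391 TPM (SD, n = 3), and the log2 difference was 1.54 (SE 0.54). Its limma p was 0.0213 before and 0.264 after adjustment, and the exact permutation test over the 35 ways of dividing 7 tumours into 4 and 3 gave a two-sided p of 0.0571, where 0.0286 is the smallest possible. The exact p of the other 9 genes lay between 0.229 and 0.943.

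In the DESeq2 results of the authors' deposited table, whose sign was read as Cr1l over vector from the sign of Cr1l itself, 1 of the 10 genes was called higher at an adjusted p under 0.05 and 0 lower; 4.74% of its 18297 genes with an adjusted p were called higher. The called gene was H2-Ob, with a log2 fold change of 2.63 (SE 0.74) and an adjusted p of 0.0116 in the authors' deposited table. H2-DMb2 followed there with 2.52 (SE 0.87, adjusted p = 0.0545) and Ciita with 1.33 (SE 0.63, adjusted p = 0.193). The authors' deposited table gave H2-Aa 0.37, Cd74 0.34 and H2-DMa 0.07, where the differences in log2(TPM + 1) were negative. Mean normalized counts there were 55.3 for H2-Ob and 93.1 for H2-DMb2, against 22992 for Cd74.

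**Figure D3:**
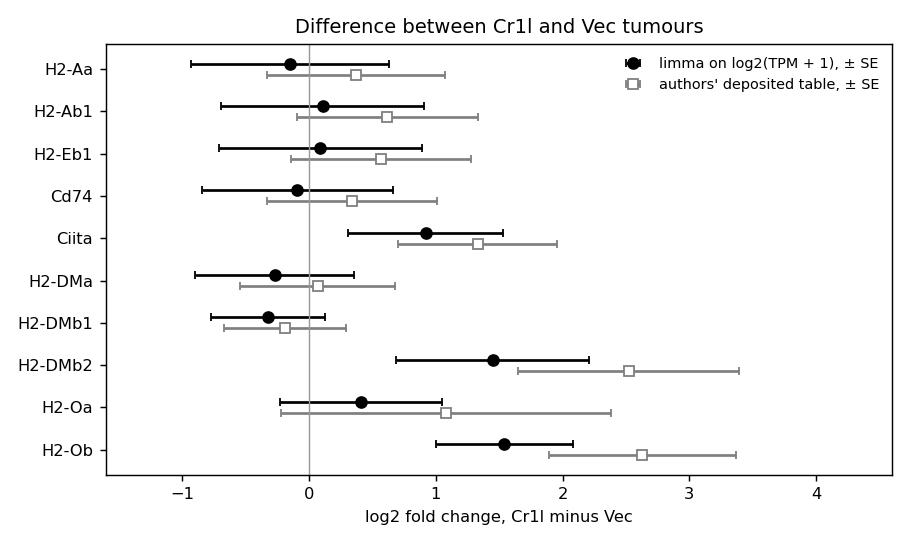
log2 fold change, Cr1l minus Vec, of the 10 genes from limma on log2(TPM + 1) (black circles) and from the authors' deposited table (open squares), each with its SE. H2-Ob and H2-DMb2 lie farthest from 0 in both, at 1.54 and 1.45 from limma.

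Since TPM are per length, genes can be set against each other within a tumour, and 10 pairs were compared between the groups. Of these, 4 did not overlap, each with an exact permutation p of 0.0286, and 0 passed after adjustment over the 10 pairs (smallest adjusted p = 0.0714). Over all 111803581 pairs of tested genes, 17.4% did not overlap in one direction or the other. The 10 pairs share genes with each other, so their count is a description. H2-Eb1 kept closest to H2-Ab1: their difference in log2(TPM + 1) ranged only from 0.06 to 0.17 over the 7 tumours. H2-Aa minus H2-Ab1, alpha against beta chain of I-A, was -0.05, 0.03, -0.05 and -0.10 with Cr1l and 0.09, 0.21 and 0.35 with vector. Thus H2-Aa relative to its partner was lower in every Cr1l tumour, by 0.26 on average. H2-DMb2 minus H2-DMb1 was -4.49, -4.19, -3.14 and -3.24 against -5.45, -5.21 and -5.97, a difference of 1.78 that carries the uncertainty of reads shared by these genes. H2-Ob minus H2-DMa, a DO chain against a DM chain, was -4.00, -3.49, -4.57 and -3.85 against -5.90, -5.58 and -5.91, a difference of 1.82. In both of these pairs the scarcer gene was closer to its partner in each Cr1l tumour than in any vector tumour.

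Against Ptprc (CD45, a phosphatase on the surface of nearly all leukocytes), H2-Ab1 lay nearer in every Cr1l tumour than in any vector tumour. H2-Ab1 minus Ptprc was 3.54, 3.54, 3.51 and 3.47 on the log2(TPM + 1) scale there, and 4.90, 4.83 and 5.34 in the vector tumours. The difference was 1.51 smaller with Cr1l than with vector. Ptprc itself was 13.72, 14.93, 132.88 and 83.57 TPM against 21.97, 12.25 and 6.44 TPM, a log2 difference of 1.62 (SE 0.84, limma adjusted p = 0.378). The same subtraction over all 14943 other tested genes had a median of -1.57, so the size of this difference is that of Ptprc. Once Ptprc was subtracted, 7.04% of those genes had every Cr1l tumour below every vector tumour, and 6 of the 10 class II genes did, which share one profile and are not independent (H2-Aa, H2-Ab1, H2-Eb1, Cd74, H2-DMa and H2-DMb1). Ciita, H2-DMb2, H2-Oa and H2-Ob overlapped on this scale. Other leukocyte or macrophage genes, chosen after the data were seen, were then put in the place of Ptprc. The difference of H2-Ab1 was -1.19 (Cd53), -0.85 (Laptm5), -0.80 (Coro1a), -1.72 (Adgre1) and -1.46 (Csf1r). The groups did not overlap in each (exact permutation p = 0.0286, unadjusted), though with Laptm5 only by 2.09 in Cr1l 1 against 2.14 in Vec 5. Like Ptprc, all 5 partners were highest in Cr1l 3 and Cr1l 4, so these results are not independent of each other. The share over all genes was not counted for them. The narrow range of the Cr1l tumours was seen with Ptprc and with none of these 5 partners: it was 2.98 to 3.51 with Cd53, 1.60 to 2.09 with Laptm5, 2.28 to 2.71 with Coro1a, 3.13 to 3.75 with Adgre1 and 2.67 to 3.48 with Csf1r.

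**Figure D4:**
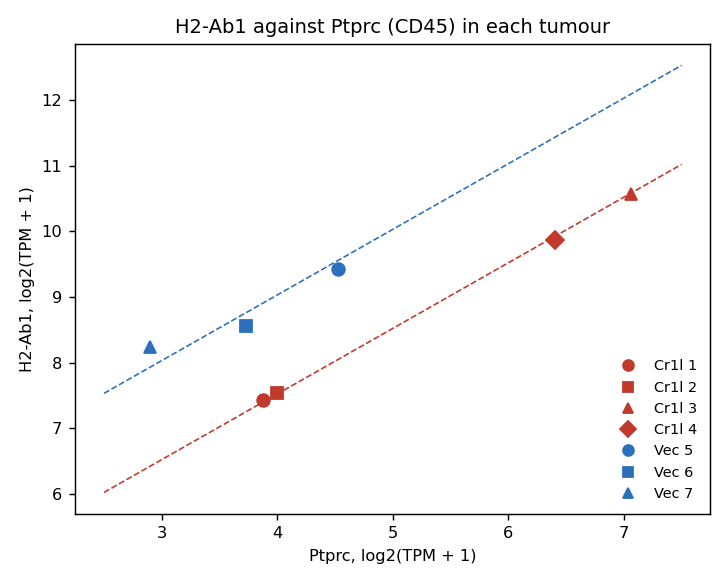
H2-Ab1 against Ptprc, both as log2(TPM + 1), 1 point per tumour; each dashed line has slope 1 and passes at the mean difference of its group, 3.52 for Cr1l (red) and 5.03 for Vec (blue). The 4 Cr1l tumours lie close to their line and the 3 vector tumours lie above it; with other leukocyte genes than Ptprc the Cr1l tumours spread more.

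**Figure D5:**
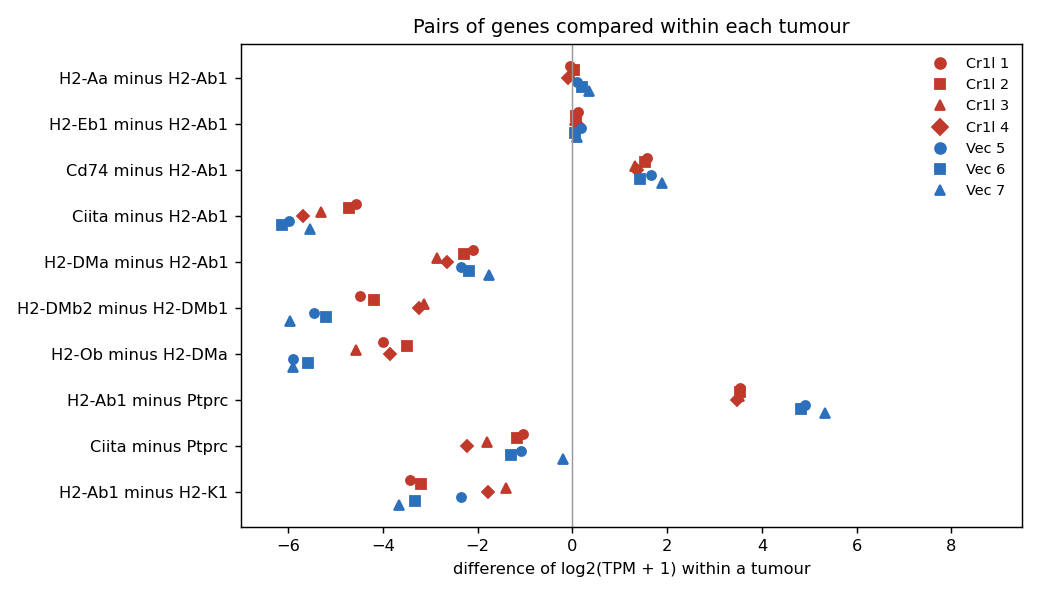
Differences of log2(TPM + 1) within a tumour for the 10 pairs, Cr1l in red and Vec in blue, 1 point per tumour. The groups separate in H2-Aa minus H2-Ab1, H2-DMb2 minus H2-DMb1, H2-Ob minus H2-DMa and H2-Ab1 minus Ptprc.

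Among 12786 other genes, those whose profile over the 7 tumours was most like the mean centred profile of H2-Aa, H2-Ab1, H2-Eb1 and Cd74 were Aif1, a macrophage and microglial protein, Phf11b, Slamf9, AW112010, Irf8, a transcription factor of dendritic cells and monocytes, and Clec12a, a myeloid lectin. Their root-mean-square differences from it were 0.25, 0.26, 0.29, 0.30, 0.30 and 0.30 on the log2 scale, against a median of 1.14 over all candidates. H2-DMa lay as near, at 0.27, whereas the members with the least similar profiles were H2-DMb2 at 0.74 and H2-Ob at 0.90.

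Genes that act beside the family were taken from lists by role, and 0 genes passed the adjusted threshold in any of them. Over all tested genes the median difference was 0.05, with 9.29% higher without overlap and 6.67% lower without overlap. The 13 factors of class II promoters and of Ciita had 11 positive and 2 negative differences (median 0.20); Nfya, a subunit of NF-Y, was 37.9 ± 6.51 TPM (SD, n = 4) against 20.7 ± 8.99 TPM (SD, n = 3), without overlap (limma adjusted p = 0.244), and Rfxap, a subunit of RFX, was lower without overlap at 34.1 against 42.7 TPM. Endosomal processing genes, the cathepsins Ctsb and Ctsl among them, had 9 positive of 10 (median 0.56). The list of class II surface turnover held the ubiquitin ligase Marchf1, its opponent Cd83, Marchf8 and Ubd, whose part in that turnover is not shown here. Ubd was at 73.44 TPM in Cr1l 3 and at 1.35 to 9.99 TPM in the other tumours (difference 0.69, SE 1.08). All 4 genes of this list were positive (median 0.77). So were the 5 tested costimulatory genes (0.91) and 6 T cell genes, Cd4, Cd3d, Cd3e and Cd247 among them (0.43). Among the costimulatory genes Tnfsf9, the ligand of 4-1BB, was higher without overlap, at 22.3 ± 5.44 TPM (SD, n = 4) against 11.5 ± 3.07 TPM (SD, n = 3). The classical class I pathway, which presents peptides from the cytosol, had 11 of 12 negative differences and a median of -0.42. Its mean log2(TPM + 1) was, like class II RNA, highest in Cr1l 3 (8.89) and lowest in Cr1l 1 (8.12) and Cr1l 2 (7.88). Unlike class II RNA, this pathway was higher in every vector tumour (8.49 to 8.84) than in Cr1l 4 (8.34). In it B2m, the light chain of class I, was 4210 ± 426 TPM (SD, n = 4) against 5907 ± 1052 TPM (SD, n = 3), without overlap (limma adjusted p = 0.264).

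The markers of cells that carry class II moved with the tumours as well. Dendritic cell markers (8 genes, 7 tested) summed to 22.6 to 319 TPM in the Cr1l tumours and 14.2 to 46.2 TPM in the vector tumours. All 7 tested were positive (median 1.25, against 0.05 over all tested genes). Of them 3, Cd209a, Clec9a and Zbtb46, were higher without overlap, as were 9.29% of all tested genes. Cd209a, Clec9a and Flt3 averaged 0.487, 0.237 and 0.483 TPM with vector and passed the filter of 1 TPM only through the Cr1l tumours. The count and the median of the dendritic cell markers rest in part on that filter. Macrophage markers (10 of 10 positive, median 0.95) summed to 378 to 3617 against 408 to 1125 TPM. B cell markers (8 genes, 1 tested) summed to 2.44 to 13.7 against 1.41 to 2.64 TPM, with Ms4a1 listed at 0 in all 3 vector tumours. Both the dendritic and the B cell sums were, like H2-Ob, highest in Cr1l 3 and Cr1l 4, and their part in its difference was not tested. Markers of other stromal cells were also positive, 7 of 7 for fibroblasts (median 1.70) and 5 of 5 for endothelium (median 1.21). Melanocyte markers of the tumour cells went against the class II genes, summing to 8872 and 10162 TPM in Cr1l 3 and Cr1l 4 and to 12899 to 20010 TPM in the other 5 tumours.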

How the data were processed

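RNA of 7 tumours was analysed, grouped by the labels, with tumour numbers that pair nothing. The deposited expression table holds log2(TPM + 1) per gene symbol, made by the authors with RSEM; the builds and tools noted are mm39, RSEM and DESeq2, per the submitters' processing notes, and neither aligner nor annotation is named there. The authors' deposited DESeq2 table gives a mean normalized count (a signal averaged over tumours), a log2 fold change with SE, and p-values raw and adjusted, per the file headers; 27182 of its 28369 identifiers matched a symbol.

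The 14954 genes averaging 1 TPM or more entered limma 3.58.1 (R 4.3.3) as log2(TPM + 1) (group as the term, variance trend, two-sided, Benjamini-Hochberg over all tested genes), a procedure tested on simulated data. Single genes and pairs had exact permutation tests. Alternatives changed the pseudocount, filter, scaling, weights and tumours. Named genes are the 10 members, up to 4 genes per list with the smallest p, partners of the pairs, and the 6 nearest profiles; Ms4a1, H2-Eb2, Marchf1 and Cd83 are named for their roles. The members and lists were chosen with earlier results of these data known. Promoters came from RefSeq (GRCm38.p6). The repertoire table was not used.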

Additional observations from a re-analysis of the deposited data

Results flagged for a closer look

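Each of the 10 class II genes and each of the 10 pairs was checked in the Cr1l group for a tumour standing apart by Dixon's test; 0 of these 20 were marked, and the vector group of 3 was not checked.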

How the results depend on the processing

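No alternative moved any of the 10 genes past the adjusted threshold (0 genes in all 13). Genes without overlap numbered 1 to 3 when 1 tumour was left out (3 without Vec 5: Ciita, H2-DMb2 and H2-Ob) and 7 without Cr1l 3 and Cr1l 4 together, when H2-Aa, H2-Ab1, H2-Eb1, Cd74, H2-DMa and H2-DMb1 were lower and H2-Ob higher. Pairs without overlap numbered 4 to 5 with 1 tumour left out and 7 without Vec 6 and Vec 7 together, when any pair with Vec 5 outside the Cr1l range counts, so that this number says little. Shares over all genes or pairs are not given for the settings with tumours left out, so these numbers are descriptions. The cause of these changes was not tested.

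The log2 difference of H2-Ob stayed positive in all 13 alternatives (0.68 to 2.24, adjusted p 0.203 to 0.793), as did that of H2-DMb2 (0.19 to 1.90), and that of H2-DMb1 stayed negative (-1.02 to -0.06). With 1 tumour left out it ranged from -0.72 to 0.33 for H2-Aa, -0.47 to 0.58 for H2-Ab1, -0.48 to 0.55 for H2-Eb1, -0.63 to 0.34 for Cd74, -0.72 to 0.10 for H2-DMa, -0.01 to 0.84 for H2-Oa and -0.05 to 0.01 for H2-Eb1 minus H2-Ab1. With array weights H2-Ab1 turned to -0.27 and H2-Eb1 to -0.30. Without Vec 6 and Vec 7, where limma gives Vec 5 the spread of the Cr1l group, H2-Ab1 turned to -0.57, H2-Eb1 to -0.66 and H2-Ab1 minus H2-K1 to -0.09 from 0.67. Without Cr1l 3 and Cr1l 4, H2-Ab1 turned to -1.26, H2-Eb1 to -1.28, Ciita to -0.03, H2-Oa to -0.54 and H2-Ab1 minus H2-K1 to -0.19. No paired analysis was possible because the groups share no tumour numbers. Depth is unknown, so the counting error of the low genes H2-Oa, H2-Ob and H2-DMb2 cannot be given.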
